A study of Mus musculus and Rattus norvegicus with 24 samples.

Results

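The MAP kinase phosphatase genes described here are 8 members of the dual-specificity phosphatase (Dusp) family, Dusp1, Dusp2, Dusp4, Dusp5, Dusp6, Dusp8, Dusp10 and Dusp14. Members were found by gene symbol, from a list drawn up with earlier results of these data known, and 8 of 22180 mouse genes and 7 of 18166 rat genes tested were members. In rat, Dusp14 has no value, because both array clusters that carry its symbol also carry those of its near-identical copies. The series asked how brain RNA differs soon after a stroke in 2 rodent species. Whole-transcript arrays measured RNA from 24 animals, 3 in each of 8 groups with 1 array an animal. The groups were pMCAO (a filament tied in place to block the middle cerebral artery for good) and sham (the same operation without the block), in mouse and in rat, each at 6 h and at 2 h. The mice were adult male C57BL/6 of 8 to 10 weeks with the right artery operated on, and the rats adult male Sprague-Dawley of 8 to 12 weeks with the left artery operated on. All animals had isoflurane anaesthesia. From pMCAO animals a piece of 3 by 3 mm was cut from the penumbra, the rim of threatened tissue around the ischaemic core, and from sham animals the matching piece of the operated side.

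MAP kinases (ERK, JNK and p38) relay growth factor, synaptic and stress signals, and each is switched on when a kinase phosphorylates a threonine and a tyrosine in its activation loop. Dusp phosphatases remove both phosphates and switch the kinase off. Several Dusp genes are themselves transcribed when a MAP kinase is active, which makes them delayed brakes on the pathway, and in neurons synaptic activity is a known inducer of Dusp1, Dusp5 and Dusp6. Dusp1, Dusp2, Dusp4 and Dusp5 proteins sit in the nucleus, Dusp6 sits in the cytoplasm and prefers ERK, Dusp8 and Dusp10 prefer JNK and p38, and Dusp14 is a small phosphatase without the kinase-binding domain of the others.

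Promoter sequences are shown for 3 mouse members because they are the ones whose 250 bases before the RefSeq start held a binding motif of an activity-regulated factor. Dusp5 carried the one mouse call, Dusp1 was called in rat but not in mouse, and Dusp8 was the member nearest to sham at 6 h. Rat promoter sequences were not available, so the windows say nothing about the rat genes. The RefSeq table (assembly GRCm38.p6) held 7 of the 8 mouse members, and Dusp4 had no entry. The windows lie at chr17:26508473-26508722 on the minus strand for Dusp1, chr19:53528895-53529144 on the plus strand for Dusp5 and chr7:142095285-142095534 on the minus strand for Dusp8, each directly before the gene's start and so outside its exons. They are written 5′ to 3′ on the gene's strand, with capitals on the full cAMP response element (CRE, TGACGTCA, the site of CREB) in Dusp1 and Dusp8 and on the CArG boxes (the site of serum response factor) in Dusp5.
Dusp1: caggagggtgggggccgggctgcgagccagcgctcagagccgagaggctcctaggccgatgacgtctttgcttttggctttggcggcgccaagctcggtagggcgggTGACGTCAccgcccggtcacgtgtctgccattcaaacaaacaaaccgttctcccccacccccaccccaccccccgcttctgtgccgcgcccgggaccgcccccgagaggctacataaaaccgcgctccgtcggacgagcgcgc
Dusp5: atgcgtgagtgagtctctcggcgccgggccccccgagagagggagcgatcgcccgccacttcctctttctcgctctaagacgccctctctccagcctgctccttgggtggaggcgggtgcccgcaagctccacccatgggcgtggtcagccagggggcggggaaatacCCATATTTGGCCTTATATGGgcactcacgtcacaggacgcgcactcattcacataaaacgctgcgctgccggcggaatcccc
Dusp8: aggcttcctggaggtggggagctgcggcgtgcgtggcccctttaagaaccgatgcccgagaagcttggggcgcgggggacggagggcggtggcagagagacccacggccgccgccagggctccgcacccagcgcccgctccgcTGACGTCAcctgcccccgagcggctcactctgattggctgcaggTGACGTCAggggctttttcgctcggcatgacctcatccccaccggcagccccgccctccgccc

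Dusp1 held 1 CRE, from 143 to 136 bases before the start, and Dusp8 held 2, at 107 to 100 and at 63 to 56 bases. Dusp5 held 2 adjacent CArG boxes, from 82 to 73 and from 72 to 63 bases before the start. Both strands were searched, and 1.55% of 32851 mouse promoter windows of this length held a CRE and 1.47% a CArG box. The CRE core TGACG was present 3 times in Dusp1, 4 times in Dusp8 and 1 time in Dusp5, and in 17.8% of all windows. A full CRE is counted here as a core on each strand. All 4 cores of Dusp8 lay within its 2 CREs. In Dusp1 only the core from 191 to 187 bases before the start lay outside the CRE. An AP-1 site (TGANTCA, 6.75% of all windows) and a TATA box (TATAAA, 12.4%) were found in 0 of the 7 members. Windows of Dusp2, Dusp6, Dusp10 and Dusp14 held none of these letters. The motifs were chosen after the sequences had been seen, and a match describes the sequence and not binding.

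Expression values are the authors' log2 values, so a difference of 1 is a factor of 2. A gene was called where limma's adjusted p was under 0.05 over all genes tested. Array medians lay between 5.92 and 5.96 in mouse at 6 h and between 6.03 and 6.06 at 2 h, and between 5.82 and 5.87 in rat at 6 h and between 6.67 and 6.75 at 2 h. Because the 2 times differ in scale, levels are compared within a time only, and because probes differ, one gene's level is not set against another's. Neuron markers lay above the array medians, all 7 listed genes being between 8.07 and 12.99 in mouse and between 8.71 and 13.47 in rat. In rat at 2 h, pMCAO replicate 2 stood apart on the first principal component at 25.9, where the other 5 arrays lay between -13.8 and 2.33. The members' rat 2 h values are given with and without it. The tissue is a mixture of cells, in which fewer cells of a type and less RNA per cell cannot be told apart.

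At 6 h after occlusion the rat penumbra had more RNA of most of the members. They were chosen with earlier results of these data known, so their shares below describe them and do not test the family. In rat at 6 h, 6 of 7 members rose (Dusp1, Dusp2, Dusp4, Dusp5, Dusp6 and Dusp10) and 0 fell, where 2.85% of all rat genes rose and 3.62% fell. The members' median log2 fold change was 0.88, against -0.02 over all rat genes, and 6 of 7 had every pMCAO array above every sham array, as 9.73% of all rat genes did. In mouse at 6 h, 1 of 8 members rose (Dusp5) and 0 fell, where 3.21% of all mouse genes rose and 4.23% fell. Their median was 0.30, against -0.02 over all mouse genes, 7 of 8 differences were positive, and 2 of 8 members (Dusp5 and Dusp10) had no overlap, against 10.7% of all mouse genes.

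At 2 h, limma called 0 of 8 members in mouse and 0 of 7 in rat, where 0.298% of mouse genes and 0.0661% of rat genes were called. At an unadjusted p under 0.05 stood 1 mouse member (Dusp6) and 3 rat members (Dusp1, Dusp6 and Dusp10). The share of all genes under that unadjusted p was not worked out. These counts and the later ones of that kind therefore have no background beside them. Every pMCAO array was above every sham array for 2 of 8 mouse members (Dusp1 and Dusp6), against 6.24% of all mouse genes. The same held for 4 of 7 rat members (Dusp1, Dusp6, Dusp8 and Dusp10), against 5.54% of all rat genes. Median differences were 0.08 in mouse and 0.23 in rat, or 0.18 in rat without pMCAO replicate 2.

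**Figure D1:**
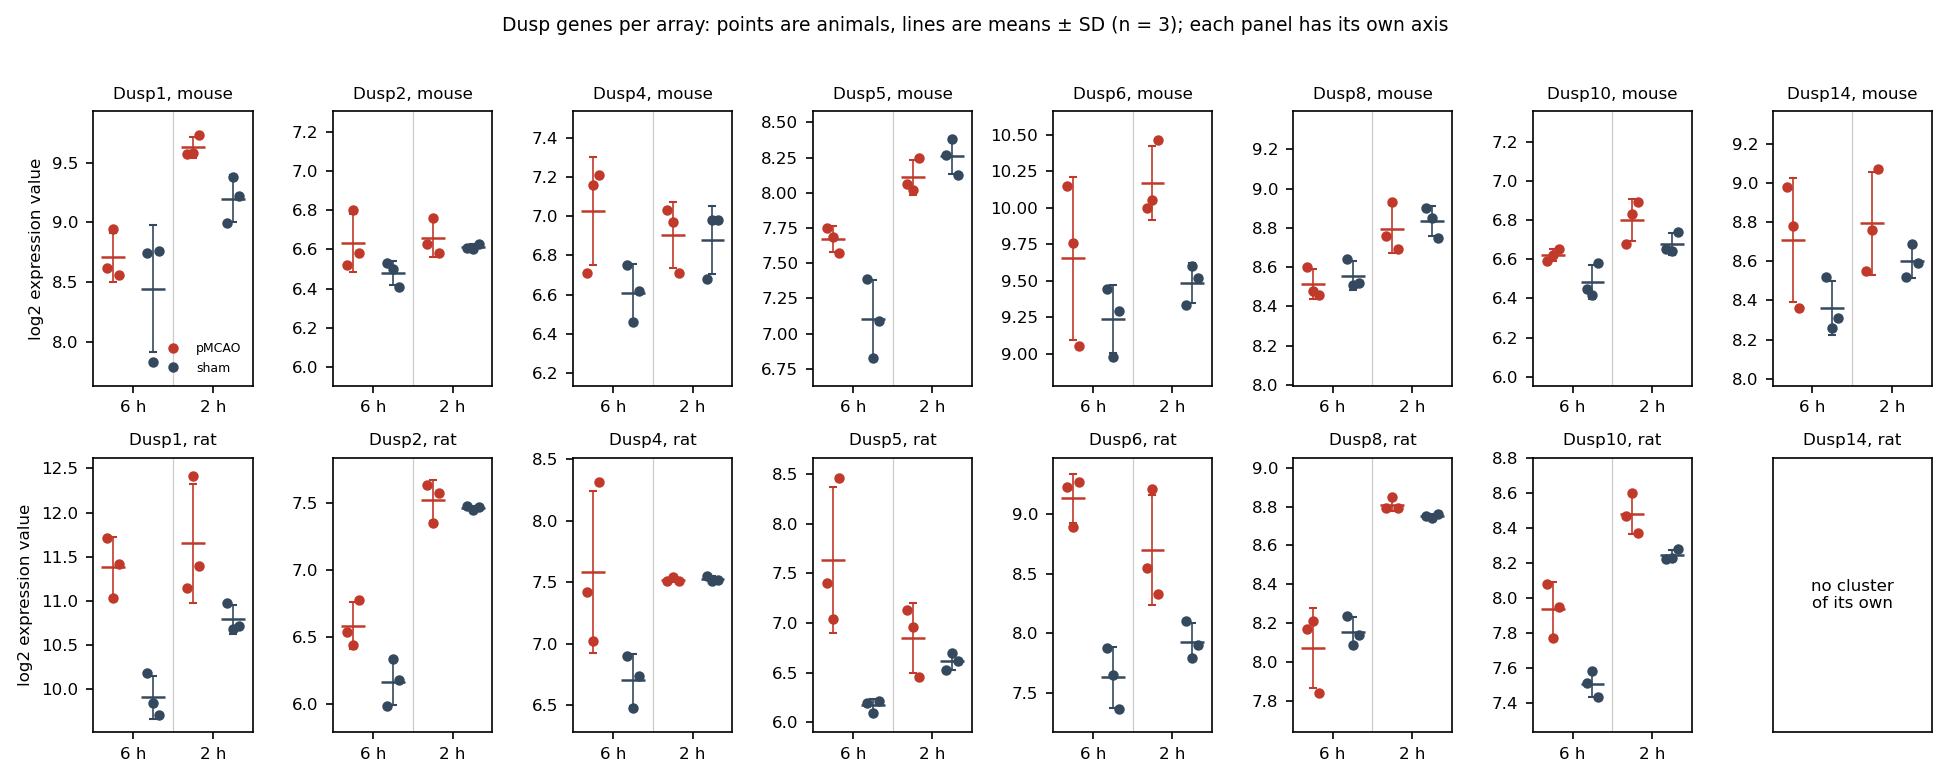
Log2 expression of each Dusp gene on every array, with 1 point an array, a bar at each group's mean of 3, pMCAO left of sham, and mouse and rat at 6 h and 2 h side by side. For Dusp1, Dusp5 and Dusp6 in rat at 6 h, all 3 pMCAO points lie above all 3 sham points, the lowest pMCAO value of Dusp6 being 8.89 and the highest sham value 7.88.

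Dusp1 (MKP-1) is an immediate early gene whose protein acts on JNK, p38 and ERK in the nucleus. Its log2 level in rat at 6 h was 11.71, 11.03 and 11.42 in pMCAO animals, against 10.18, 9.84 and 9.71 in sham animals. The groups were well apart, with a gap of most of a log2 unit between the lowest pMCAO and the highest sham animal. Their means were 11.39 ± 0.34 and 9.91 ± 0.24 (SD, n = 3 each), a log2 fold change of 1.48 ± 0.28 (SE), or 2.78-fold (adjusted p = 0.00918), which ranked 41 of 18166 genes from the largest rise. In rat at 2 h the levels were 11.15, 12.42 and 11.39 in pMCAO animals and 10.98, 10.68 and 10.71 in sham animals. The pMCAO animals were again all higher, the second of them by far the highest. This difference of 0.86 ± 0.28 ranked 20 from the top but was not called (adjusted p = 0.513), and it was 0.48 without pMCAO replicate 2.

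Mouse Dusp1 did not separate the groups at 6 h. Its levels were 8.62, 8.94 and 8.56 in pMCAO mice and 8.74, 7.83 and 8.76 in sham mice, a difference of 0.26 ± 0.21 (adjusted p = 0.497). Sham replicate 2 was nearly a log2 unit under the other shams, and without it the difference was -0.04. The pMCAO mice at 2 h, at 9.57, 9.58 and 9.73, were all above the sham mice, at 8.99, 9.38 and 9.22. The difference of 0.43 ± 0.21 was not called (adjusted p = 0.680).

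Dusp5 is a nuclear phosphatase that acts on ERK alone, and it was the only member called in both species. At 6 h its levels in mice were 7.75, 7.69 and 7.57 after pMCAO, against 7.39, 6.83 and 7.09 after sham. The pMCAO mice lay close together above a wider spread of shams. Means were 7.67 ± 0.092 and 7.10 ± 0.28, and the log2 fold change was 0.57 ± 0.13 (1.48-fold, adjusted p = 0.0220). The call was lost without pMCAO replicate 1 (adjusted p = 0.0576), pMCAO replicate 2 (0.0590), sham replicate 2 (0.0608) or sham replicate 3 (0.0706). The sign was the other way at 2 h, with 8.06, 8.02 and 8.25 in pMCAO mice and 8.27, 8.38 and 8.13 in sham mice, and the groups overlapped (-0.15 ± 0.13, adjusted p = 0.825).

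Rat Dusp5 at 6 h was at 7.40, 7.04 and 8.46 in pMCAO animals and at 6.20, 6.10 and 6.22 in sham animals. Shams were nearly identical and every pMCAO animal was higher, the third most of all. The log2 fold change was 1.46 ± 0.28 (2.75-fold, adjusted p = 0.0106), and it was 1.05 and still called without pMCAO replicate 3. Values overlapped at 2 h, at 7.13, 6.96 and 6.46 in pMCAO animals and 6.53, 6.70 and 6.62 in sham animals (0.23, adjusted p = 0.908, and 0.18 without pMCAO replicate 2).

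Dusp4 (MKP-2), a nuclear phosphatase of ERK, JNK and p38, rose in rat at 6 h. Its levels were 7.42, 7.02 and 8.31 in pMCAO animals, against 6.90, 6.48 and 6.74 in sham animals. All pMCAO animals were higher, but the third stood more than a log2 unit above the second. The log2 fold change of 0.88 ± 0.24 had an adjusted p of 0.0481, was 0.51 without pMCAO replicate 3, and lost its call without pMCAO replicate 1 (adjusted p = 0.0735) or sham replicate 1 (0.0825), 2 (0.161) or 3 (0.0929). At 2 h the 6 rats were almost level, at 7.51, 7.54 and 7.51 after pMCAO and 7.55, 7.51 and 7.52 after sham, and the difference was -0.01 (-0.02 without pMCAO replicate 2).

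Mouse Dusp4 at 6 h was at 6.71, 7.16 and 7.21 in pMCAO animals and 6.75, 6.46 and 6.62 in sham animals. The difference of 0.42 ± 0.14 was not called (adjusted p = 0.0992), and pMCAO replicate 1 lay among the shams. It was 0.58 and called without that array (adjusted p = 0.0268), and called with all arrays when genes under the median level were left out (adjusted p = 0.0397). At 2 h Dusp4 differed by 0.02, with 7.03, 6.97 and 6.71 in pMCAO mice and 6.68, 6.98 and 6.98 in sham mice.

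Dusp2 (PAC-1) is an immediate early phosphatase best known from activated lymphocytes. It rose by a small amount in rat at 6 h, where it was at 6.54, 6.44 and 6.78 in pMCAO animals and 5.99, 6.34 and 6.18 in sham animals (0.42 ± 0.11, adjusted p = 0.0470). The nearest pMCAO and sham animals were close, at 6.44 and 6.34. The call was lost without pMCAO replicate 1 (adjusted p = 0.0823) or 3 (0.143) or sham replicate 1 (0.166) or 3 (0.0928). At 2 h it was at 7.64, 7.35 and 7.58 in pMCAO rats and 7.48, 7.45 and 7.47 in sham rats (0.06, adjusted p = 0.951, and 0.14 without pMCAO replicate 2). In mouse Dusp2 overlapped at both times. It was at 6.52, 6.80 and 6.58 in pMCAO mice and 6.53, 6.50 and 6.41 in sham mice at 6 h (0.15 ± 0.079, adjusted p = 0.270), and at 6.63, 6.76 and 6.58 against 6.61, 6.60 and 6.63 at 2 h (0.04).

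Dusp6 (MKP-3), the cytoplasmic ERK phosphatase, is transcribed in response to ERK activity itself. Rats at 6 h were at 9.23, 8.89 and 9.27 after pMCAO, against 7.88, 7.65 and 7.37 after sham. The lowest pMCAO animal was a full log2 unit above the highest sham. Means were 9.13 ± 0.21 and 7.63 ± 0.26, and the log2 fold change of 1.50 ± 0.20 (2.82-fold, adjusted p = 0.00165, rank 40 of 18166) had a 95% interval of 1.06 to 1.94. Rats at 2 h were at 8.55, 9.21 and 8.33 after pMCAO and 8.10, 7.79 and 7.90 after sham. These groups did not overlap either, and the difference of 0.77 ± 0.20 ranked 33 without being called (adjusted p = 0.360). It was 0.51 without pMCAO replicate 2.

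Among mouse members at 2 h, Dusp6 had the largest difference. It was at 10.00, 10.05 and 10.46 in pMCAO mice and 9.33, 9.60 and 9.52 in sham mice. All pMCAO mice were higher, by 0.69 ± 0.23 on average, ranking 35 of 22180 genes, but the adjusted p was 0.466. At 6 h the mice were at 10.15, 9.76 and 9.05 after pMCAO and 9.44, 8.98 and 9.29 after sham. Pronounced spread between the pMCAO mice went with an uncalled difference of 0.42 ± 0.23 (adjusted p = 0.311). Without pMCAO replicate 3, the lowest of them, it was 0.72 and called (adjusted p = 0.0482). A second, dimmer mouse cluster of Dusp6, not used in the tests, differed by -0.02 at 6 h and 0.02 at 2 h.

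Dusp10 (MKP-5) acts on JNK and p38. Its rat levels at 6 h were 8.08, 7.77 and 7.95 in pMCAO animals and 7.51, 7.58 and 7.43 in sham animals. The groups were apart and the change was modest, 0.43 ± 0.090 on the log2 scale (1.34-fold, adjusted p = 0.0164). The call was lost, narrowly, without pMCAO replicate 1 (adjusted p = 0.0546), sham replicate 1 (0.0541) or sham replicate 3 (0.0546). At 2 h the rats were at 8.47, 8.60 and 8.37 after pMCAO and 8.22, 8.23 and 8.28 after sham, a difference of 0.24 (adjusted p = 0.598) that was 0.18 without pMCAO replicate 2. Mouse Dusp10 had small, uncalled differences. At 6 h it was at 6.59, 6.62 and 6.65 in pMCAO mice and 6.45, 6.42 and 6.58 in sham mice (0.14 ± 0.070, adjusted p = 0.267), and at 2 h at 6.68, 6.83 and 6.89 against 6.65, 6.64 and 6.74 (0.12, adjusted p = 0.735).

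Dusp8, the other member directed at JNK and p38 and a gene known for expression in brain, was close to sham throughout. Rats at 6 h were at 8.17, 8.21 and 7.84 after pMCAO and 8.24, 8.09 and 8.14 after sham (-0.08 ± 0.092, adjusted p = 0.656). Mice at 6 h were at 8.60, 8.48 and 8.46 after pMCAO and 8.64, 8.51 and 8.52 after sham (-0.04 ± 0.077, adjusted p = 0.786). Both pairs of groups overlapped, and the 95% intervals ran from -0.28 to 0.12 in rat and from -0.21 to 0.13 in mouse, so a rise of the size of rat Dusp1 lay outside them. At 2 h the differences were 0.06 in rat (0.04 without pMCAO replicate 2), where 8.79, 8.85 and 8.79 in pMCAO animals stood just above 8.75, 8.74 and 8.76 in sham animals, and -0.04 in mouse, where 8.76, 8.93 and 8.69 overlapped 8.90, 8.85 and 8.75.

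Dusp14 was measured in mouse alone. At 6 h it was at 8.98, 8.78 and 8.36 in pMCAO mice and 8.52, 8.26 and 8.31 in sham mice, and at 2 h at 8.55, 8.76 and 9.07 against 8.52, 8.69 and 8.59. The groups overlapped at both times, with differences of 0.34 ± 0.16 (adjusted p = 0.215) and 0.19 (adjusted p = 0.816).

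**Figure D2:**
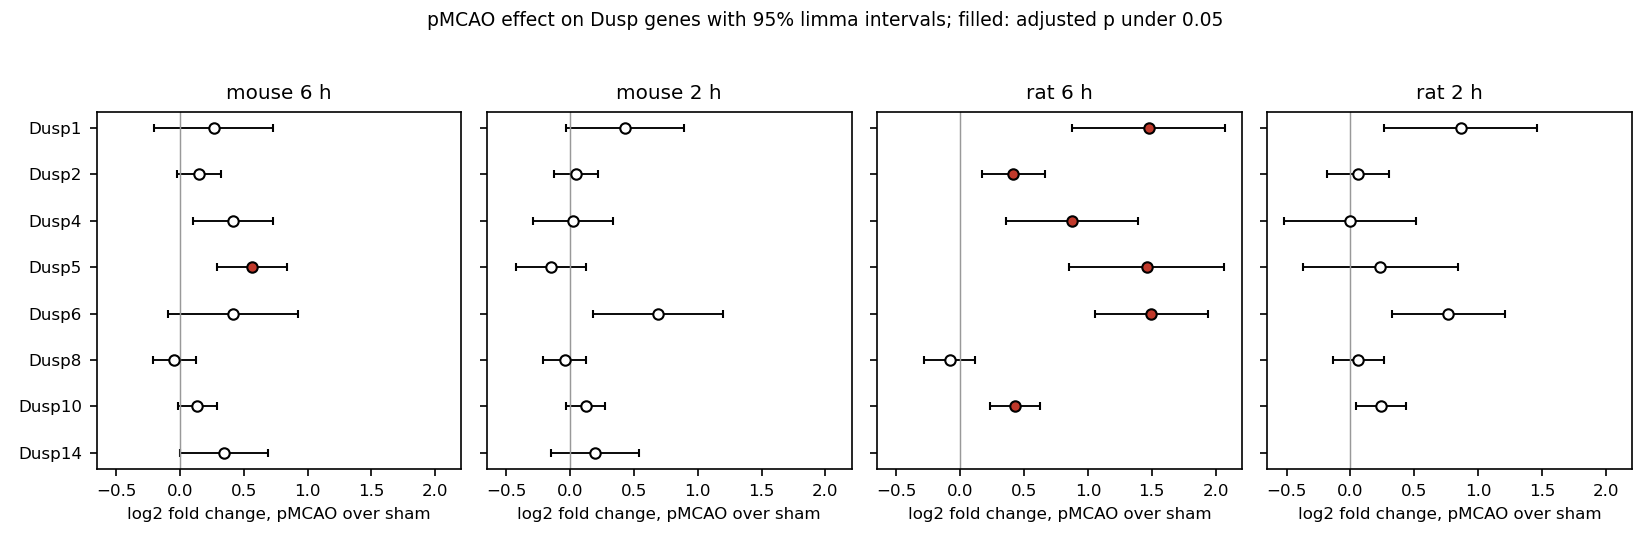
Log2 fold change of each Dusp gene, pMCAO over sham, with its 95% limma interval (3 animals a group) in the 4 comparisons. Filled points passed an adjusted p of 0.05, which were 1 of 8 in mouse at 6 h, 0 of 8 in mouse at 2 h, 6 of 7 in rat at 6 h and 0 of 7 in rat at 2 h.

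Whether the pMCAO effect differed between 6 h and 2 h was tested as the 6 h effect minus the 2 h effect. Array scale differed between the times. The lowest value of a rat array was 2.57 to 2.73 at 2 h and 0.96 to 1.09 at 6 h. A change of effect over time cannot be told apart from this difference in scale. Limma called 0 of 8 members in mouse (0.171% of all genes) and 0 of 7 in rat (0.231%), so the calls at 6 h and their lack at 2 h are not shown to differ. At an unadjusted p under 0.05 stood 1 mouse member (Dusp5) and 4 rat members (Dusp2, Dusp4, Dusp5 and Dusp6). Dusp5 had the largest difference in both species, 0.72 ± 0.18 in mouse (95% interval 0.33 to 1.11, adjusted p = 0.122) and 1.23 ± 0.39 in rat (0.37 to 2.09, adjusted p = 0.269). In rat the effect of Dusp4 was larger at 6 h by 0.88 (adjusted p = 0.357), that of Dusp6 by 0.73 (adjusted p = 0.373) and that of Dusp1 by 0.61 (adjusted p = 0.617). Without rat 2 h pMCAO replicate 2 the last of these, for Dusp1, was 1.00 (adjusted p = 0.171), that for Dusp6 was 0.99 (adjusted p = 0.102), that for Dusp5 1.28 (adjusted p = 0.305) and that for Dusp4 0.89 (adjusted p = 0.412). In mouse Dusp6 and Dusp1 had the opposite sign, at -0.27 and -0.17, with an interval for Dusp6 of -0.99 to 0.45.

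The mouse and rat effects were also compared, as mouse minus rat, over 14193 symbols measured in both. At 6 h, 0 of 7 members differed past the threshold (2.28% of all genes did), and 4 had an unadjusted p under 0.05 (Dusp1, Dusp5, Dusp6 and Dusp10). Differences were -1.21 ± 0.35 for Dusp1 (95% interval -1.93 to -0.49, adjusted p = 0.0664), -1.08 ± 0.31 for Dusp6 (-1.72 to -0.44, adjusted p = 0.0647) and -0.89 for Dusp5 (adjusted p = 0.142). These 3 were the largest, all toward a smaller effect in mouse. The species also differed in array design, probes and operated side, so species cannot be told apart from these. Single arrays moved 2 of them past the threshold, Dusp1 without mouse sham replicate 2 (-1.52, adjusted p = 0.0158) and Dusp6 without mouse pMCAO replicate 1 (adjusted p = 0.0182), and without rat pMCAO replicate 2 all 3 passed (adjusted p = 0.0444, 0.0445 and 0.0363 for Dusp1, Dusp6 and Dusp5). The remaining differences were -0.46 for Dusp4, -0.29 for Dusp10, -0.26 for Dusp2 and 0.04 for Dusp8 (-0.21 to 0.29). At 2 h limma's effects differed for 0 of 7 members (0.0141% of all genes), and for 0 at an unadjusted p under 0.05, the differences of Dusp1, Dusp5 and Dusp6 being -0.43, -0.38 and -0.08. Without rat pMCAO replicate 2 they were -0.05, -0.33 and 0.18.

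**Figure D3:**
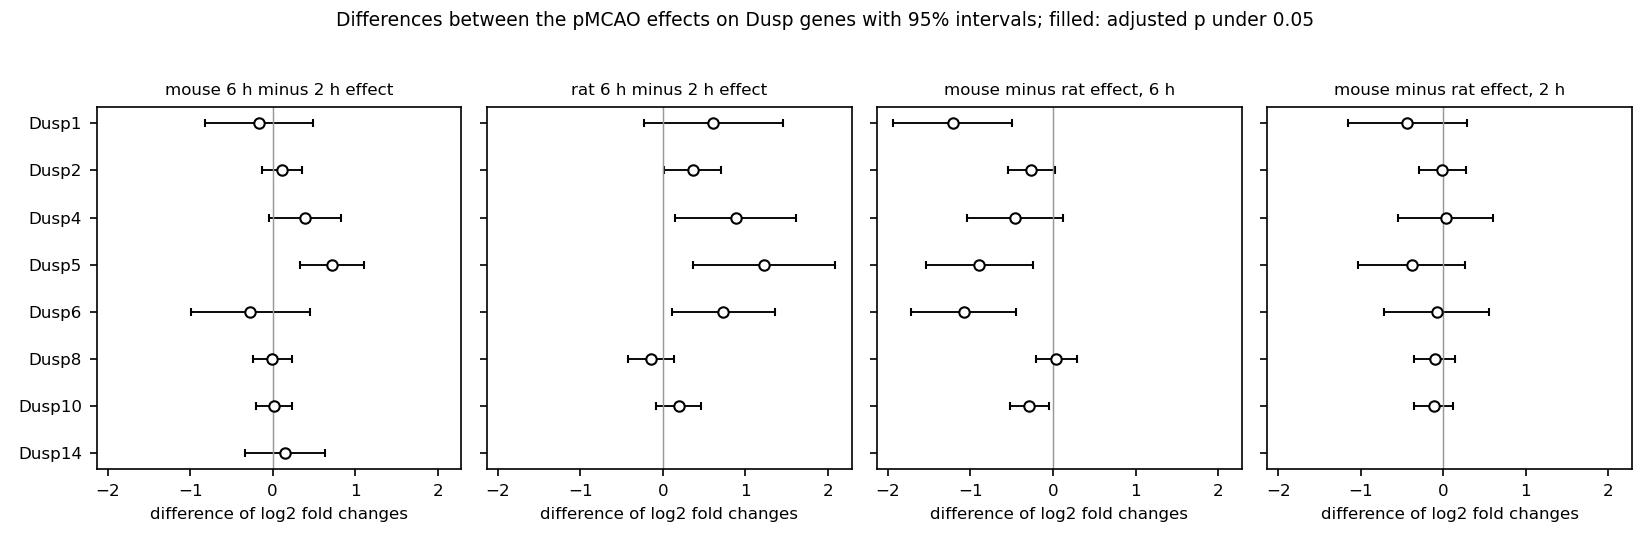
Differences between pMCAO effects on the log2 scale with 95% intervals, as the 6 h effect minus the 2 h effect in each species and as the mouse effect minus the rat effect at each time. No member passed an adjusted p of 0.05 in any panel. The intervals are not adjusted for the number of genes. Time cannot be told apart from array scale here, nor species from array design and operated side. For mouse minus rat at 6 h those of Dusp1, Dusp5, Dusp6 and Dusp10 lie below 0. For 6 h minus 2 h those of Dusp5 in mouse and of Dusp2, Dusp4, Dusp5 and Dusp6 in rat lie above 0.

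Markers of other cell populations moved with these comparisons. Their part in the Dusp values was not tested, apart from a fit with the striatal marker level as a covariate. Of 15 marker lists, the mean level of 2 was higher in every pMCAO array than in every sham array in mouse at 6 h and that of 6 was lower, while in rat at 6 h 3 were higher and 2 lower. In rat at 6 h, 2 of 8 neutrophil markers rose (Mmp8 by 1.04 and S100a9 by 0.99), with a mean level of 5.46 to 5.61 in pMCAO animals and 4.98 to 5.05 in sham animals. Monocyte markers had the highest list median there (0.45), with 1 of 4 called, Ccr2 at 0.58. Ccr2 was dim, at 4.22 in pMCAO and 3.63 in sham rats, where array medians were 5.82 to 5.87. Striatal neuron markers in rat at 6 h were at 6.82 to 6.83 in pMCAO animals and 6.71 to 6.78 in sham animals. Microglia markers had the lowest median (-0.30), 2 of 6 having fallen (P2ry12 by 0.85 and Tmem119 by 0.42), at 7.18 to 7.41 in pMCAO animals and 7.50 to 7.56 in sham animals. Cortical glutamatergic neuron markers were at 9.26 to 9.48 in pMCAO rats and 9.62 to 9.69 in sham rats, with 1 of 4 called (Neurod6, which fell by 0.91). The others were uncalled, smaller and of mixed sign, at -0.12 (Slc17a7), -0.27 (Neurod2) and 0.26 (Tbr1).

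The mean level of the cortical glutamatergic neuron list was lower in mouse at 6 h too, at 9.57 to 9.63 in pMCAO mice and 9.72 to 9.78 in sham mice. Of its genes 1 of 5 was called (Neurod6, which fell by 0.73). The others were uncalled, smaller and of mixed sign, at 0.003 (Slc17a7), 0.18 (Neurod2), -0.14 (Tbr1) and -0.07 (Camk2a). Striatal neuron markers had the lowest list median (-0.72), with 3 of 8 having fallen, among them Drd2 by 1.64. Their mean level was 7.10 to 7.27 in pMCAO mice, and 8.26, 7.42 and 8.57 in sham mice. Sham replicate 2, the low one here, also had the lowest value of the 3 shams for every Dusp member except Dusp2. With the striatal level as a covariate mouse Dusp5 stood at 0.77 and was not called by limma (adjusted p = 0.143). That level was lower in every pMCAO mouse than in every sham mouse at 6 h, so the fit cannot fully separate it from pMCAO. The microglia list was at 7.14 to 7.28 in pMCAO mice and 7.37 to 7.45 in sham mice, 2 of 6 having fallen. Lists of general neurons, GABAergic interneurons and oligodendrocyte precursors were also lower in every pMCAO mouse, and lists of oligodendrocytes and meningeal fibroblasts higher. Gfap, the classic astrocyte marker, rose by 0.89 (1 of 7 of its list) and the endothelial Cdh5 by 0.58 (1 of 6). Other genes of these lists had the opposite sign, uncalled. They were Slc1a2 and Gja1 (both -0.20) among astrocyte markers, and Tek (-0.37), Cldn5 (-0.18) and Flt1 (-0.11) among endothelial markers. The mean levels of both lists overlapped between pMCAO and sham mice. Choroid plexus markers had the highest median (0.44, with 0 of 4 called by limma and 0 at an unadjusted p under 0.05, 6.29 to 8.35 in pMCAO mice and 6.14 to 7.16 in sham mice).

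At 2 h the extreme list medians were 0.15 (neutrophils) and -0.23 (oligodendrocyte precursors) in mouse and 0.22 (neutrophils) and -0.23 (striatal neurons) in rat. The neutrophil list was at 6.24 to 6.46 in pMCAO rats and 5.89 to 5.98 in sham rats, with 0 of 8 called by limma and 3 at an unadjusted p under 0.05. Oligodendrocyte precursor lists were lower in every pMCAO array in both species at 2 h, and the cortical neuron list in mouse. No marker was at 0 on this scale, but without detection calls a low level cannot be told from background.

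The rest of the pathway was read from 12 lists ordered by role, with 130 genes measured in mouse and 133 in rat. Ligands of receptor tyrosine kinases, which start the cascade, rose for 4 of 11 in mouse at 6 h, led by Bdnf (0.85 ± 0.16, adjusted p = 0.0128), Pdgfb (0.67) and Hbegf (0.55 ± 0.089, adjusted p = 0.00627). In rat 3 of 13 rose, Hbegf (1.57 ± 0.15, adjusted p = 0.000199), Bdnf (1.28 ± 0.34, adjusted p = 0.0458) and Pdgfa (0.38). Of their receptors 0 of 13 were called in mouse by limma (5 at an unadjusted p under 0.05) and 1 of 13 in rat, Erbb3, which fell by 0.42. Of the Ras module and its scaffolds 2 of 16 fell in mouse, Sos2 by 0.25 and Spag9 by 0.20, and 2 of 17 in rat, Sos2 by 0.38 and Rasa1 by 0.28. These guide Ras on or off or hold kinases together.

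Of the genes listed as MAP3 kinases, 4 of 20 rose in rat at 6 h, while in mouse 1 of 21 fell (Map3k13 by 0.56). The rises were led by Map3k14 (0.61 ± 0.081, adjusted p = 0.00147), Map3k6 (0.51) and Map3k5 (0.49). The list follows the family, and that each member acts on MAP kinases is not shown here. Map2k6, which activates p38, was the one MAP2 kinase called, having fallen by 0.35 in mouse (1 of 6) and by 0.66 in rat (1 of 7). Of the listed MAP kinases themselves, 2 of 12 rose in mouse (Mapk4 by 0.44 and Mapk12, a p38 kinase, by 0.40) and 1 fell (Nlk by 0.41). In rat 0 of 12 were called by limma, with 2 at an unadjusted p under 0.05. Mapkapk2, a kinase that p38 switches on, rose in mouse (0.58 ± 0.077, adjusted p = 0.00245, among 8 of its kind, of which Rps6ka5 fell by 0.38) and in rat (0.39, 1 of 10).

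Of 3 further Dusp genes of the MAP kinase phosphatase type on both arrays, Dusp16 (MKP-7, directed at JNK and p38) rose in mouse (0.58 ± 0.12, adjusted p = 0.0161) and in rat (0.45 ± 0.093, adjusted p = 0.0148) at 6 h. Dusp7 and Dusp9, both ERK phosphatases, differed by 0.08 and -0.08 in mouse and by 0.12 and 0.10 in rat, uncalled. Atypical Dusp genes, most of which do not act on MAP kinases, had no called rise. In mouse 2 of 13 were called lower (Dusp21 by 0.29 and Dusp22 by 0.25), and in rat limma called 0 of 11 (2 at an unadjusted p under 0.05). Dusp21 was dim, at 3.59 in pMCAO and 3.88 in sham mice, where array medians were 5.92 to 5.96. Without detection calls its expression is not shown. The medians of the atypical list were -0.10 in mouse and -0.09 in rat. Of other phosphatases that act on MAP kinases, the tyrosine phosphatases Ptprr (by 0.36) and Ptpn5 (by 0.32) fell in mouse (2 of 8) and Ptprr (by 0.40) in rat (1 of 7). Sprouty and Spred inhibitors, which block the pathway near Ras, had 1 of 7 called in mouse (Spred3 fell by 0.32) and 0 of 7 in rat by limma, with 3 at an unadjusted p under 0.05 and a median of 0.31.

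Transcripts known to follow ERK activity rose for 8 of 13 in rat at 6 h, led by Fos (3.71 ± 0.34, adjusted p = 0.000153), Egr1 (1.46) and Fosl1 (1.46), with a list median of 0.73. In mouse 3 of 12 rose, Fos (1.41 ± 0.23, adjusted p = 0.00733), Ier3 (0.65) and Myc (0.60), with a median of 0.18. At 2 h Fos alone was called in this list, at 1.80 in mouse (1 of 12, adjusted p = 0.00704) and 2.44 in rat (1 of 13, adjusted p = 0.0182). Without rat pMCAO replicate 2 the rat value was 1.95 and called (adjusted p = 0.0141), and the call was lost without any 1 of the 3 rat shams. In the other 11 lists limma called 0 of 118 genes in mouse and 0 of 120 in rat at 2 h, with 10 in each at an unadjusted p under 0.05. Of the 39 calls named in these lists, 13 held whichever array was left out, among them those of Hbegf and Fos at 6 h in both species and of Dusp16 in rat. The other 26 were lost without at least 1 array, at adjusted p between 0.0502 and 0.155.

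**Figure D4:**
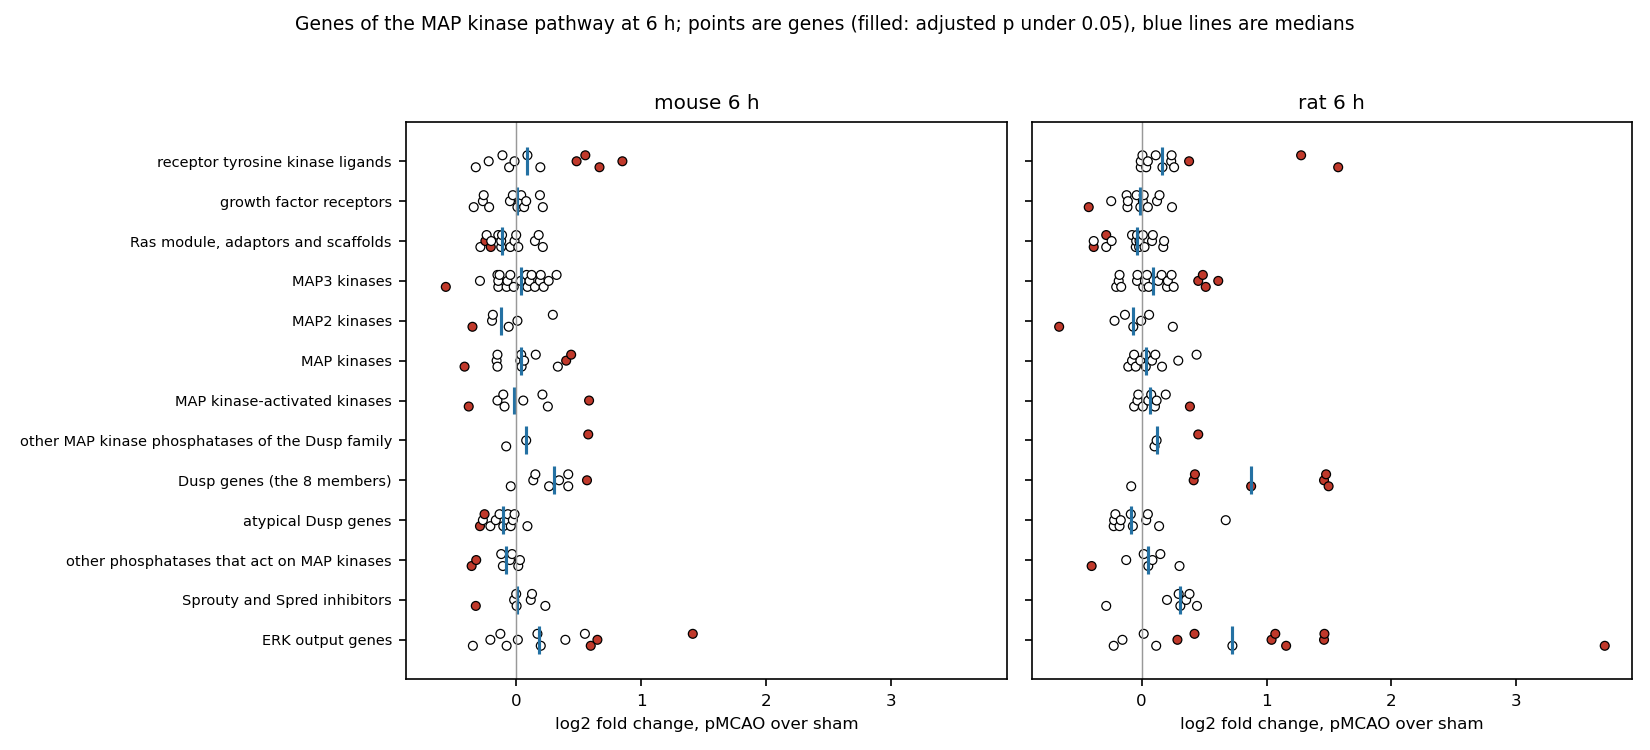
Log2 fold changes, pMCAO over sham, of the genes in each pathway list at 6 h in mouse and in rat, with 1 point a gene and filled points past an adjusted p of 0.05. In rat the ERK output genes (transcripts known to follow ERK activity, which was not measured) have 8 of 13 points filled. The MAP kinases have 0 of 12 filled in rat.

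The genes most like each called member were taken by Pearson's r over the 12 arrays of a species, after each time's mean was removed. Such an r follows the pMCAO and sham split and the array, which all genes share, and is a description of these arrays. Rat Dusp1 was most like the immediate early genes Nr4a1 (r = 0.99), Junb (0.98) and Ier2 (0.97). Rat Dusp6 was close to Junb (0.99), Crem (0.98) and Nr4a1 (0.98), of which Junb and Nr4a1 recur. Rat Dusp5 was nearest to Nptx2, a synaptic pentraxin (0.99), Snx18 (0.98) and Cwh43 (0.97), and rat Dusp4 to Lrrc8b (0.98), Gprc5a (0.97) and Lcn2 (0.97). Rat Dusp10 was nearest to Ndel1 (0.98), Fbxo33 (0.97) and Idi1 (0.96), and rat Dusp2 to Pdlim1 (0.95), Snrpg (0.92) and Sec63 (0.91). Mouse Dusp5 was nearest to Dnajb5 (0.95), Zfp948 (0.92) and Gatad2a (0.92), none of which is on the list of its rat counterpart.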

How the data were processed

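The authors deposited 1 table of log2 expression values per species, 12 arrays each, made with oligo and limma per the submitters' processing notes. How background was corrected and arrays normalized was not given in the sources used here. There are no detection calls. Sample titles gave the groups, times and replicate numbers, while a separate time label reads 2 h throughout and was not used. RNA integrity numbers were above 7.5, per the labels. Each array is a separate animal, so p-values measure the spread between animals, and the number of arrays limits precision.

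A gene was a symbol with a cluster of its own in the platform annotation, the brightest on average where there were several. Group means of the 12 arrays of a species were fitted by limma 3.58.1 (R 4.3.3) with 8 residual degrees of freedom and eBayes, and p-values are two-sided and Benjamini-Hochberg adjusted over all genes tested. An exact permutation test of 3 against 3 cannot go below 0.1. The species difference used Welch-Satterthwaite degrees of freedom. The scripts were tested on simulated data. The members and lists were chosen with earlier results of these data known. All members are named in every comparison, with up to 3 called genes of largest change per pathway list, the cell type lists of highest and lowest median, and for each called member the 3 genes most like it.

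Alternatives covered scaling, a filter on dim genes, array weights, a trended or robust prior, a replicate block, the 6 arrays of a comparison alone, the striatal marker level as a covariate and each array left out. Running them for the named pathway genes was chosen after seeing the data.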

Additional observations from a re-analysis of the deposited data

How the results depend on the processing

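The number of members past the threshold in mouse at 6 h was 1 in the reported fit. It was 0 with the replicate block, with the striatal marker level as a covariate and with the 6 arrays of that comparison fitted alone, 2 with genes under the median level left out, and 0 to 2 with each array left out. In rat at 6 h it was 6, against 2 with the 6 arrays alone (Dusp1 and Dusp6) and 3 to 6 with each array left out, 3 without pMCAO replicate 1, sham replicate 1 or sham replicate 3. At 2 h it was 0 in both species under every alternative run, and 0 to 0 with each array left out. The change of the effect over time was called for 0 mouse members, against 1 (Dusp5) with a trended and robust prior and 1 with dim genes left out, and 0 to 0 with each array left out, while rat had 0 throughout. The species difference at 6 h was called for 0 members, against 2 (Dusp1 and Dusp6) with dim genes left out and 0 to 3 with each array left out, and at 2 h for 0 throughout. In rat at 6 h Dusp1 and Dusp6 were called under all 15 alternatives, Dusp5 under 13 of 14, Dusp10 under 11 of 15, Dusp4 under 7 of 15 and Dusp2 under 6 of 15. Mouse Dusp5 at 6 h was called under 8 of 15. Their adjusted p ranges were 0.00303 to 0.0383 for rat Dusp1, 0.000415 to 0.0105 for rat Dusp6 and 0.00502 to 0.143 for mouse Dusp5. Beyond what the construction shows (fewer arrays, fewer genes), the cause was not tested. No called value changed sign. Scaling left the median of all genes in mouse at 6 h between -0.04 and -0.02. Over all genes, 711 were higher and 938 lower in mouse at 6 h, against 597 and 1227 after median centring, and in rat at 2 h 6 and 6, against 6 and 3 after quantile normalization.

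Replicate numbers did not pair the samples. Deviations of same-numbered pMCAO and sham arrays correlated between -0.12 and 0.33, and 9 of 24 arrays correlated best with their own number. By comparison this was 4 of 6 in rat at 6 h, 2 of 6 in rat at 2 h, 3 of 6 in mouse at 6 h and 0 of 6 in mouse at 2 h. With the replicate block the members called at 6 h were 0 in mouse and 5 in rat (Dusp2 lost), and at 2 h 0 in each.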
